A study of Mus musculus with 11 samples.

Results

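The integrated stress response and the unfolded protein response were followed through 37 named genes, taken by symbol from a table of 22369 mouse genes, in 11 lines of mouse embryonic stem cells, each grown from 1 cell colony. All 37 were in the table. They fall into an ATF4 arm of 23 genes (transcription regulators, stress effectors, amino acid and one-carbon enzymes, and amino acid transporters), 3 genes for the sensors and the switch of the unfolded protein response, and an endoplasmic reticulum (ER) arm of 11 chaperones, folding enzymes and degradation factors. The genes were named for their known roles and not by level or spread, although earlier results of these data were known when they were named.

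The study made clones that each carry many barcoded piggyBac reporters driven by the mouse PGK promoter (mPGK), and sequenced the RNA of each clone once. All clones derive from EBRTcH3 cells, an embryonic stem cell line in which the ROSA26 promoter drives a tetracycline-controlled transactivator, and all received the barcoded plasmid library together with mPB transposase. Cells with strong eGFP signal were sorted and single colonies were expanded, so each of the clones 16 to 26 is 1 line from 1 colony with 1 library. All grew in BRL cell-conditioned medium with leukemia inhibitory factor, the MEK inhibitor PD0325901 and the GSK-3 inhibitor CHIR99021. No clone had another treatment, so the only comparison is of clones with each other. A clone's biology and its library or culture cannot be told apart, and p-values measure the spread between these 11 libraries.

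In the integrated stress response, kinases that sense amino acid shortage, unfolded protein in the ER, heme deficiency or viral RNA phosphorylate the initiation factor eIF2. General translation then falls while translation of the transcription factor ATF4 rises, and ATF4 switches on genes for amino acid uptake and synthesis together with stress regulators. The unfolded protein response shares the kinase PERK (Eif2ak3) with this system, and through IRE1 (Ern1) with XBP1 and through ATF6 it also raises chaperones of the ER. Much of the control of ATF4, XBP1 and ATF6 lies in translation, splicing or cleavage, which counts of messenger RNA do not show.

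Promoter sequences from RefSeq (GRCm38.p6) were found for 34 of the 37 members, and examples from both arms that hold a known response motif are shown, so that the matched letters can be read. Slc7a3, Manf and Slc7a5 had no entry. In the 250 bases before the start, TGATGNAAN, the core of the ATF4 amino acid response element, was searched on both strands. It was in 3.44% of 32851 promoters, in 7 of 21 ATF4 arm members (Aars, Asns, Atf3, Chac1, Nupr1, Slc7a11 and Vldlr), in 0 of the 3 sensor and Xbp1 promoters, and in 1 of 10 ER arm members, Herpud1. The ATF4-element matches are shown in capitals, where most read as the reverse complement, and Slc7a11 has a pair of them in opposite orientation. In Herpud1 the capitals also mark a second element, described next.
Chac1: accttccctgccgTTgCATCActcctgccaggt
Atf3: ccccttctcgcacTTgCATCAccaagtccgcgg
Slc7a11: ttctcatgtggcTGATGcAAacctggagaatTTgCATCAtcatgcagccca
Vldlr: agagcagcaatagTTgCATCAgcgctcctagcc
Asns: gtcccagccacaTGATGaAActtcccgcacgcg
Herpud1: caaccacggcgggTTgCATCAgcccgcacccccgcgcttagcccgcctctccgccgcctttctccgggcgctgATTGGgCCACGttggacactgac
Their positions, with the sequence printed 5′ to 3′ on the gene's strand, are Chac1 chr2:119351036-119351068 (plus strand), Atf3 chr1:191183424-191183456 (minus strand), Slc7a11 chr3:50443641-50443691 (minus strand), Vldlr chr19:27216807-27216839 (plus strand), Asns chr6:7693212-7693244 (minus strand) and Herpud1 chr8:94386304-94386399 (plus strand).

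The ER stress element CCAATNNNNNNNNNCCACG, through which ATF6 and XBP1 act, was in 0.113% of promoters on either strand, in 5 of 10 ER arm members (Calr, Creld2, Hsp90b1, Hspa5 and Pdia6) and in 0 of 21 ATF4 arm members. The short form ATTGGNCCACG (ER stress element II), a motif added after the other matches were seen, was in 0.0304% of promoters and among members only in Herpud1. CCAAT and ATTGG are reverse complements, so the elements share these letters. The unfolded protein response element TGACGTGG was in 0.563% of promoters and in 0 members. The outer letters of the ER stress element are in capitals in these examples.
Hspa5: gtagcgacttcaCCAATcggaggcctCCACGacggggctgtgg
Calr: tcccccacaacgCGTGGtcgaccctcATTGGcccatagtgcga
Pdia6: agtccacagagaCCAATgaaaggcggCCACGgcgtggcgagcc
Creld2: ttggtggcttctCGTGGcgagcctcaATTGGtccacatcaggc
Their positions are Hspa5 chr2:34772013-34772055 (plus strand), Calr chr8:84847063-84847105 (minus strand), Pdia6 chr12:17266479-17266521 (plus strand) and Creld2 chr15:88819508-88819550 (plus strand). Herpud1 was the one member promoter with an ATF4-type element and an ER stress element in the window. A match describes letters only, and no binding was measured. Members were named for known roles and the motifs are known response elements, so these shares are no result about the clones. Member shares count genes, 3 of which have 2 starts, while the shares of all promoters count each promoter.

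Gene counts totalled 10846005 in clone 16 to 16868500 in clone 23 (median 14378599). Levels are CPM, counts scaled to a library of fixed size, on TMM-scaled library sizes, with mean ± SD over the 11 clones, and CPM does not correct for gene length, so levels are compared between clones and not between genes. The lowest count of any member in any library was 33 (Cebpb in clone 17), and the floor of 3 counts corresponded to 0.173 to 0.284 CPM. In bulk RNA, a smaller share of cells with a transcript and less transcript per cell cannot be told apart. Of 7 embryonic stem cell markers, 7 had a mean of at least 1 CPM, and they summed to 6096 CPM in clone 17 to 7918.5 in clone 16, which were also the clones lowest and highest for the ATF4 arm. Fibroblast markers summed to 11.0 to 28.4 CPM, and primitive endoderm, trophoblast and neural markers to 1.83 to 7.75, 3.08 to 15.9 and 48.6 to 121 CPM. The liver markers, looked at because BRL cells come from rat liver, summed to 0 to 0.340 CPM, with Alb at 0 in every library. A mean of at least 1 CPM was also reached by 4 of 6 fibroblast, 1 of 5 primitive endoderm, 1 of 3 trophoblast and 3 of 3 neural markers, and by 0 of 4 liver markers. The part of these markers in the results was not tested.

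Variation between clones was found in many genes of the ATF4 arm and in few of the ER arm. A gene was called variable where its counts spread between clones more than those of genes of like abundance (edgeR goodness-of-fit test, adjusted p under 0.05 over all 12479 genes tested), and 959 genes, 7.68% of those tested, were. In the ATF4 arm 10 of 23 members were variable (43.5%): Atf4, Atf3, Atf5, Trib3, Ddit4, Chac1, Vldlr, Stc2, Phgdh and Slc7a11. In the ER arm 1 of 11 was (9.09%, near the share of all genes), Herpud1. Of the sensors and Xbp1 0 of 3 were variable by the edgeR test, and 0 of 3 at an unadjusted p under 0.05 or when DESeq2 fitted the dispersion trend. Whether the shares of the arms differ was not tested. With clones 20 to 26 alone, an alternative added after the data were seen, 5 of 23 ATF4 arm members and 0 of 11 ER arm members were variable, where 4.90% of all genes were.

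The median ATF4 arm member was 2.31 times higher in its highest clone than in its lowest. The ratio was 1.57 for the ER arm and 1.81 for all genes tested. It was 1.68 for the genes with a mean of 5 CPM or more, a level that every member exceeded. The deviance ratio, which is 1 for a gene with exactly the spread of the trend, had a median of 1.73 in the ATF4 arm, 0.589 in the ER arm, 0.612 for the sensors and Xbp1, and 0.551 over all genes. In the ATF4 arm 21 of 23 members were above that all-gene median, and in the ER arm 6 of 11. Of the 11 variable members 10 had a mean of 15.3 to 156 CPM, and of the 12 members with a higher mean than that Atf4 alone was variable, as the plot of spread against mean level shows. The part of level in this was not tested.

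**Figure D1:**
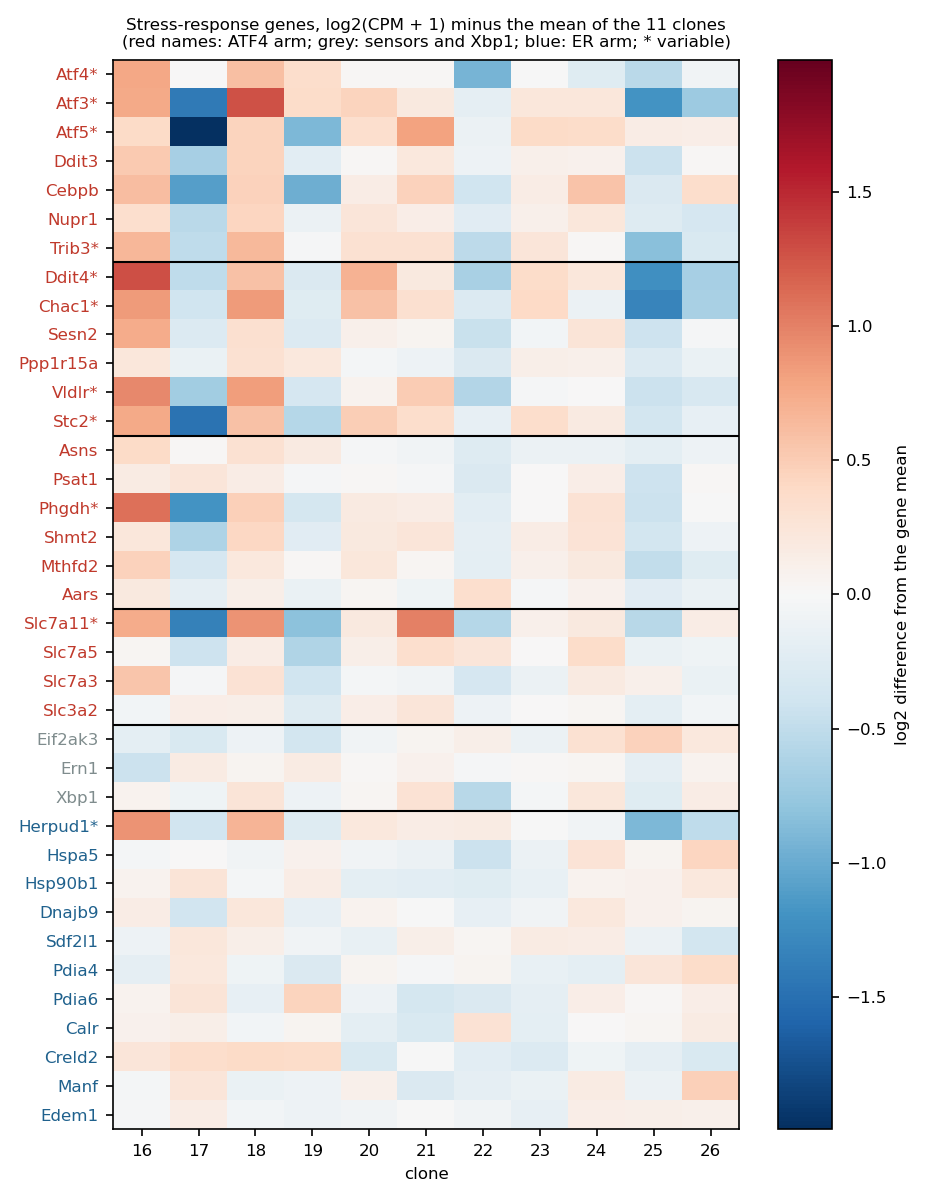
Difference of each member's log2(CPM + 1) from its mean over the 11 clones, with clones 16 to 26 on the x axis and genes on the y axis (red names ATF4 arm, grey sensors and Xbp1, blue ER arm, asterisks the 11 variable members). Most ATF4 arm genes are red in clones 16 and 18 and blue in clones 17 and 25, while the ER arm other than Herpud1 stays pale.

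**Figure D2:**
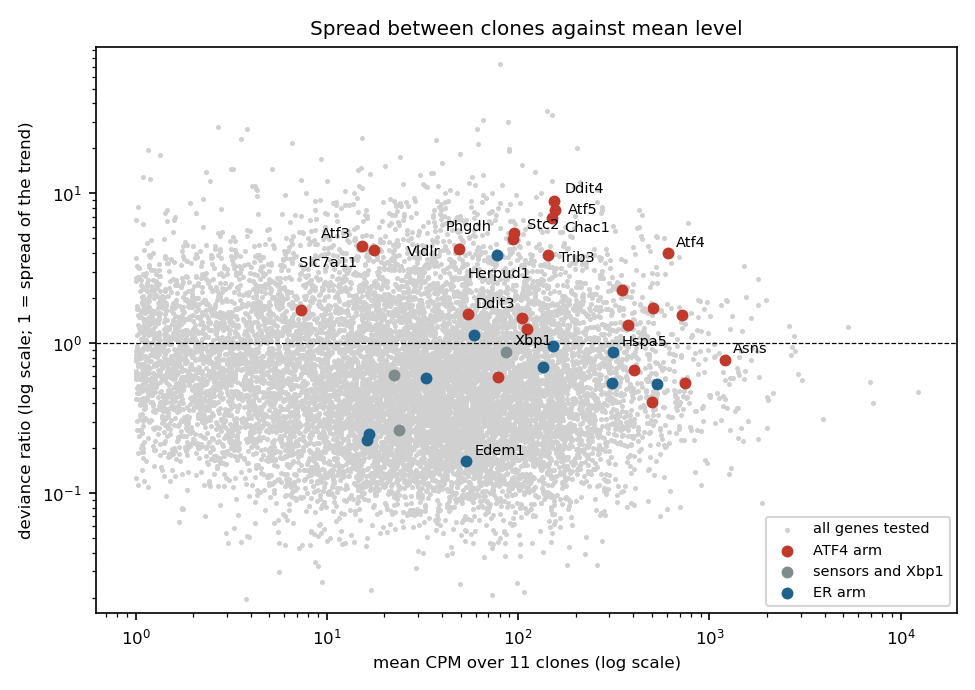
Deviance ratio (y axis, log scale) against mean CPM over the 11 clones (x axis, log scale) for all 12479 genes tested (light grey) and the 37 members in colour, with a dashed line at 1, the spread of the trend. The 10 variable ATF4 arm genes lie well above the line, and all but Atf4 have a mean of 156 CPM or less, while of the ER arm Herpud1 lies with them.

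Among the ATF4 arm regulators 4 of 7 were variable. Atf4, the transcription factor of the response, stood at 304 CPM in clone 22, 583 in the median clone and 989 in clone 16 (607 ± 197, n = 11). Clones 16, 18 and 19 were high and clones 22 and 25 low. It was variable (deviance ratio 3.97, edgeR adjusted p = 0.000524), and the call was lost at an adjusted p of 0.0538 without clone 22 and of 0.0501 after correction for neighbouring genes on the chromosome, which is described further on.

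Atf3, a stress-induced repressor of the same family, ran from 4.37 CPM in clone 17 through a median of 15.7 to 33.5 in clone 18 (deviance ratio 4.43, adjusted p = 9.63e-05). Clone 25 was nearly as low as clone 17, at 5.26 CPM. Atf5, a stress-induced factor related to ATF4, stood at 34.6 CPM in clone 17, 179 in the median clone and 245 in clone 21 (deviance ratio 7.77, adjusted p = 1.46e-10). Here 2 clones were low, 17 and 19 (74.9 CPM), and the other 9 lay between 130.3 and 245 CPM. Atf5 shares 82 bases of exon with Nup62 and with Il4i1 on the opposite strand. Here and below, such a figure is the longest overlap of a single pair of exons. The strand of counting is not given, so reads from shared bases could be counted with either gene.

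Trib3, a pseudokinase that restrains ATF4 output and Akt signalling, ran from 76.1 CPM in clone 25 through 139 to 218 in clone 16 (deviance ratio 3.86, adjusted p = 0.000786). Clone 18 was level with clone 16, at 215 CPM. Ddit3, which encodes the pro-apoptotic factor CHOP, did not pass (adjusted p = 0.677): it stood at 33.1 CPM in clone 17, 54.2 in the median clone and 76.2 in clone 16. It shares 68 bases of exon with Mars on the opposite strand, and 63 on the same strand with a second annotated gene entry also named Ddit3. Cebpb, a bZIP partner of these factors, and Nupr1, a stress-induced chromatin-associated protein, did not pass either, with 2.62 to 10.9 and 71.0 to 138 CPM. Both were lowest in clone 17. Cebpb shares 312 bases of exon with Tmem189 on the opposite strand.

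Of the 6 stress effectors 4 were variable. Ddit4, an inhibitor of mTORC1 signalling, had the largest deviance ratio of all members, 8.82 (adjusted p = 1.76e-12). It stood at 58.2 CPM in clone 25, 157 in the median clone and 335 in clone 16, a 5.76-fold range, and clone 20 was next with 223. Chac1, which degrades glutathione, ran from 54.2 CPM in clone 25 through 126 to 247 in clone 16, and clone 18 was level with it at 246 (deviance ratio 6.89, adjusted p = 5.41e-09). Clones 16, 18 and 20 were the highest for both genes, in different order.

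Vldlr, a lipoprotein receptor that PERK signalling can raise, ran from 27.9 CPM in clone 17 through 44.9 to 89.4 in clone 16 (deviance ratio 4.23, adjusted p = 0.000207). Only clones 16, 18 and 21 exceeded 50 CPM. Stc2, a secreted glycoprotein of the stress response, stood at 31.2 CPM in clone 17, 100.3 in the median clone and 149.7 in clone 16 (deviance ratio 5.41, adjusted p = 2.20e-06). Clone 19 was the next lowest, at 59.4 CPM. Sesn2, a leucine sensor and antioxidant protein, was lowest in clone 22 (251 CPM) and highest in clone 16 (569.8) and missed the threshold (adjusted p = 0.122); without clone 19 it passed (adjusted p = 0.0406). Ppp1r15a, which encodes GADD34 and directs the phosphatase that reverses eIF2 phosphorylation, ranged from 63.5 to 95.9 CPM with a deviance ratio of 0.594.

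Of the 6 amino acid and one-carbon enzymes 1 was variable. Asns, asparagine synthetase and a standard readout of amino acid response, stood at 994 CPM in clone 22, 1135 in the median clone and 1541 in clone 16, a 1.55-fold range (deviance ratio 0.777, adjusted p = 1). Its order of clones was close to that of Atf4, as given with the correlations. Phgdh, the first enzyme of serine synthesis, was the variable member: 37.7 CPM in clone 17, 88.0 in the median clone and 187 in clone 16 (deviance ratio 4.95, adjusted p = 1.35e-05). Its next enzyme Psat1 did not pass and was highest in clone 17, at 476 CPM, where Phgdh was lowest. Shmt2 and Mthfd2, enzymes of mitochondrial one-carbon metabolism, ranged from 326 to 664 and from 77.4 to 149.8 CPM without passing. Aars, the alanyl-tRNA synthetase, was at 637 to 937 CPM and shares 1326 bases of exon with Exosc6 on the same strand, so its counts are uncertain.

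Of the 4 amino acid transporters Slc7a11 alone was variable. Slc7a11, the cystine importer that feeds glutathione synthesis, ran from 5.56 CPM in clone 17 through 17.4 to 32.5 in clone 21 (deviance ratio 4.15, adjusted p = 0.000271). Clones 16, 18 and 21 were high, and clones 17 and 19 low. Slc7a5 and Slc3a2, the light and heavy chains of a transporter of large neutral amino acids, ranged from 462 to 900.4 and from 416 to 586 CPM, and Slc7a3, a transporter of cationic amino acids, from 280.3 to 542, all without passing. Slc3a2 is also the heavy chain of the cystine importer.

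**Figure D3:**
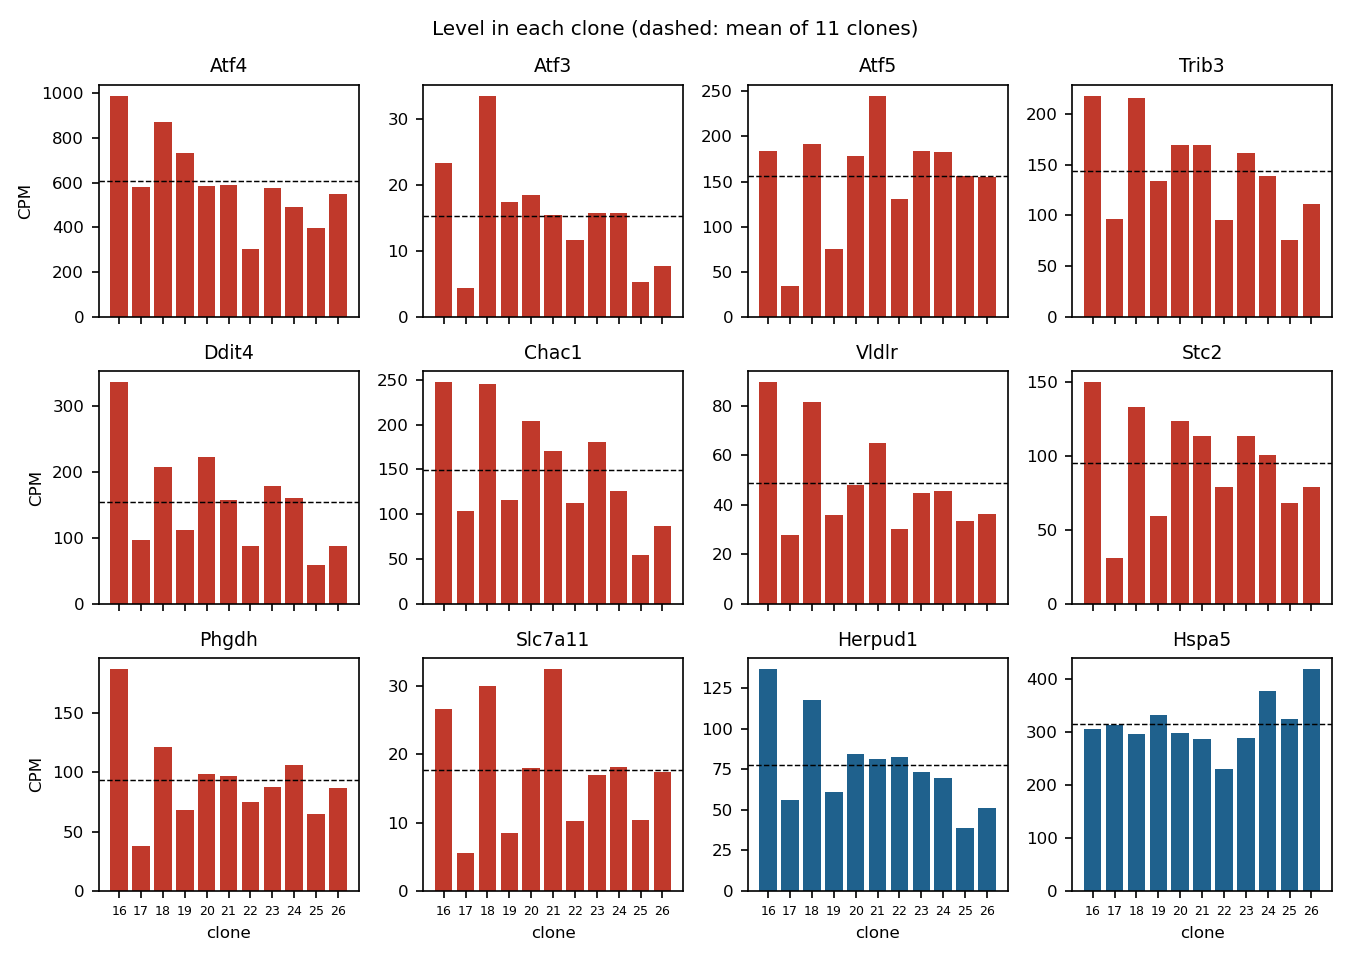
Level of 12 members in each of clones 16 to 26 (x axis; y axis CPM from 0, a separate scale for each gene; 1 library per bar, no error bars; dashed line the mean of the 11 clones; red ATF4 arm, blue ER arm). Ddit4 and Chac1 are highest in clone 16 and lowest in clone 25, Atf5 and Stc2 are lowest in clone 17, and Hspa5 stays between 230.2 and 417 CPM.

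The sensors and Xbp1 did not pass the test. Eif2ak3, which encodes the kinase PERK, was lowest in clone 19 (16.9 CPM) and highest in clone 25 (30.9). Ern1, which encodes IRE1, was lowest in clone 16 (17.3 CPM) and highest in clone 17 (26.9). Xbp1, the transcription factor activated by IRE1 splicing, stood at 57.7 CPM in clone 22, 87.7 in the median clone and 104 in clone 21 (deviance ratio 0.878, adjusted p = 1). These counts do not separate the spliced form of Xbp1.

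Herpud1 was the variable member of the ER arm. Herpud1, a membrane protein of ER-associated degradation, ran from 38.9 CPM in clone 25 through 73.0 to 137 in clone 16, a 3.51-fold range (deviance ratio 3.86, adjusted p = 0.000786). Its highest clones, 16 and 18, and its lowest, 25, were those of Chac1 and Trib3. Hspa5, which encodes BiP, the main chaperone of the ER, was at 230.2 CPM in clone 22, 305 in the median clone and 417 in clone 26 (deviance ratio 0.869, adjusted p = 1). In clones 16 and 18, where Herpud1 was at 137 and 118 CPM, Hspa5 was at 305 and 296 CPM.

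Each of the other 9 ER arm genes had an adjusted p of 1. Hsp90b1, the HSP90 of the ER, ranged from 261 to 367 CPM, and Calr, a lectin chaperone, from 429 to 647. The disulfide isomerases Pdia4 and Pdia6 ranged from 109 to 171 and from 118 to 205 CPM. Dnajb9 and Sdf2l1, partners of BiP, spanned 12.3 to 19.3 and 12.3 to 18.99 CPM, and Manf, a secreted survival factor kept by the ER, 26.6 to 45.9. Creld2, an ER-resident protein, had the next highest deviance ratio in the arm after Herpud1, 1.13, with 46.6 to 75.5 CPM. Edem1, which marks glycoproteins for degradation, moved least of all members, from 47.3 to 59.2 CPM (deviance ratio 0.163).

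Much of the ATF4 arm shared its high and its low clones. An arm score, the mean over members of log2(CPM + 1) minus each member's mean over clones, was lowest for the ATF4 arm in clones 17 and 25, at -0.58 and -0.45, and highest in clones 16 and 18, at 0.55 and 0.47. The SD of the score over the 11 clones was 0.37 for the ATF4 arm and 0.09 for the ER arm. The median of all genes had an SD of 0.007, but library scaling holds that median level, so it is not a baseline for the arms. Gene by gene the arms lay closer, with a median SD of log2(CPM + 1) of 0.351 in the ATF4 arm and 0.205 in the ER arm. A score also shrinks where its genes do not move together. Members above their own mean numbered 22 of 23 in clone 16 and 23 of 23 in clone 18, against 4 of 23 in clone 17 and 2 of 23 in each of clones 22 and 25. Clone 16 was highest for 13 of the 23 members, and clones 17 and 25 were lowest for 10 and 6. Over the 13 members that were not variable the score had the same sign in these clones, at 0.34, 0.28, -0.30 and -0.27 in clones 16, 18, 17 and 25. These members are part of the full score by which the 4 clones were picked, so the shared sign is partly built in.

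**Figure D4:**
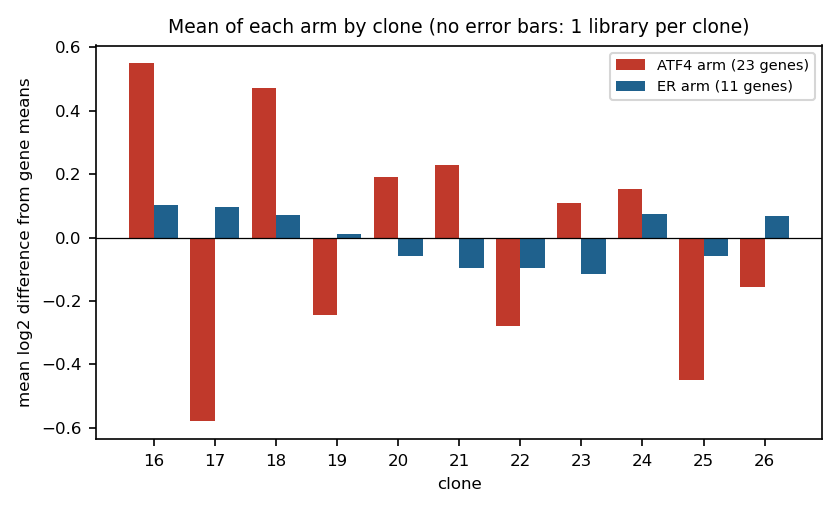
Arm score (y axis, mean log2 difference from the gene means) of the ATF4 arm (red, 23 genes) and the ER arm (blue, 11 genes) in clones 16 to 26 (x axis); bars are 1 library each, without error. The ATF4 arm runs from -0.58 to 0.55 and the ER arm stays between -0.12 and 0.10.

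Low clones differed in which members were at their lowest, though most of the genes named here for clones 17 and 25 were low in both. In clone 17 Atf5, Stc2, Phgdh and Slc7a11 were at their lowest. Atf4 was at the median there, 583 CPM, and Asns at 1202 CPM, above its median. The genes next to Atf4 on chromosome 15 were higher by 0.53 log2 in clone 17, as described further on. In clone 25 Ddit4, Chac1, Trib3 and Herpud1 were at their lowest while Atf5, at 156 CPM, lay at its mean and below its median of 179. Phgdh, Stc2 and Slc7a11 were also below their medians in clone 25, at 64.6, 68.0 and 10.3 CPM. Likewise Ddit4, Chac1, Trib3 and Herpud1 were below theirs in clone 17, at 96.5, 104, 96.4 and 55.9 CPM. In clone 22 Atf4, Asns and Sesn2 were at their lowest.

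Correlations over the 11 clones were also computed. All points share libraries, so no test is given. Within the ATF4 arm the median Pearson r over 253 pairs was 0.62 and 246 pairs were positive, within the ER arm the median over 55 pairs was 0.07 with 30 positive, and between the arms it was -0.09 over 253 pairs with 103 positive. Over the 53597481 pairs that genes at 5 CPM or more can form, the median was 0.002. Chac1, Trib3 and Ddit4 moved closely (r = 0.95 for Chac1 with each, Spearman's rho 0.94 for Trib3 and 0.97 for Ddit4). Herpud1 lay with them (r = 0.93 with Chac1, rho 0.90), at an r of 0.85 with the ATF4 arm score and -0.36 with the rest of the ER arm. Dnajb9, the BiP partner, also had a higher r with the ATF4 arm, 0.72, than with the rest of its own arm, -0.04.

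Atf4 was closest to Asns among the pairs examined (r = 0.94, rho 0.95, and 0.94 without the 2 clones farthest from the median of Atf4). It was less close to Chac1 (r = 0.66, rho 0.72) and Trib3 (r = 0.79, rho 0.81). For Atf4 with Atf5 r was 0.05 and rho 0.37, and r was -0.10 without the 2 farthest clones. Atf5 was close to Stc2 (r = 0.91) and Slc7a11 (r = 0.86), though r with Stc2 fell to 0.64 without the 2 farthest clones. Ddit3, which was not variable by itself, had the highest r with the rest of the ATF4 arm, 0.95. Hspa5 went with Hsp90b1 (r = 0.74) and Manf (r = 0.73), which came to 0.58 and 0.50 without the 2 farthest clones, and its r with Herpud1 was -0.43. The ATF4 and ER scores had an r of 0.13, which came to 0.36 without the 2 farthest clones. When Herpud1 was left out the r was -0.31, and -0.005 without the 2 farthest clones. Total counts per library had an r of -0.23 with the ATF4 arm score, which came to 0.04 without the 2 farthest libraries.

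**Figure D5:**
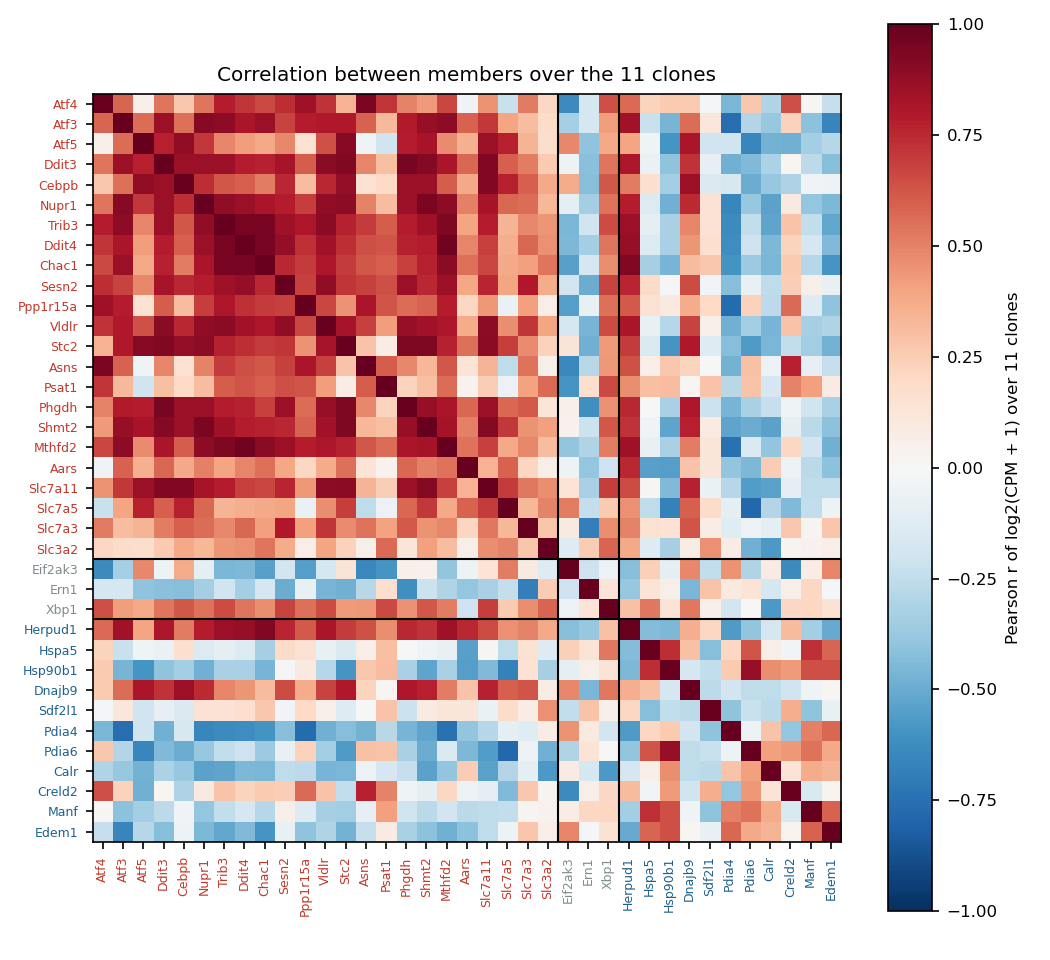
Pearson r of log2(CPM + 1) between members over the 11 clones (both axes the 37 genes; red positive, blue negative; lines divide the ATF4 arm, the sensors and Xbp1, and the ER arm). The ATF4 arm forms a mostly red square, and the row of Herpud1 is red against the ATF4 arm and mostly blue against its own arm.

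No single clone was called different from the others for any member. Each clone was set against the remaining 10 with edgeR (quasi-likelihood), and 0 of 407 pairs of member and clone passed an adjusted p of 0.05, where 0.213% of all 137269 pairs of gene and clone did. At an unadjusted p under 0.05, 38 of the 407 pairs (9.34%) passed, against 5.92% of all pairs. Lowest in p was Atf5 in clone 17, 34.6 CPM against 168 ± 44.4 (n = 10) in the others, with a log2 fold change of -2.28 ± 0.49 (SE) and an edgeR adjusted p of 0.111. Without clone 19, also low in Atf5, it was called, with a log2 fold change of -2.38 and an adjusted p of 0.0173. The DESeq2 Wald test called 2 pairs, Atf5 and Stc2 in clone 17 (log2 fold changes -2.28 and -1.71, adjusted p = 1.46e-05 and 0.00725), and 1.05% of all pairs.

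For 11 of 37 members the neighbouring genes were shifted in a clone, as for 2888 of 12340 genes placed. The shift is the median over the 24 nearest tested genes on the chromosome of the log2 difference from the median clone, and 0.25 was the least size counted. Near Atf4 on chromosome 15 the neighbours were higher by 0.43, 0.53, 0.47 and 0.33 in clones 16 to 19, where Atf4 itself differed by 0.76, 0, 0.58 and 0.33. Creld2 on the same chromosome had neighbours higher by 0.42, 0.35, 0.48 and 0.36 in these clones and differed by 0.33, 0.44, 0.46 and 0.46, so its 4 highest clones were the 4 with shifted neighbours. Near Phgdh and Slc7a11 on chromosome 3 they were higher by 0.47 and 0.49 in clone 16, where these genes differed by 1.08 and 0.59. Near Vldlr on chromosome 19 they were higher by 0.52 in clone 17, where Vldlr was at its lowest, -0.67, and Psat1, on that chromosome with a shift of 0.54, at its highest, 0.22. Herpud1, Calr and Aars on chromosome 8 had neighbours higher by 0.47, 0.60 and 0.51 in clone 22, and differed there by 0.17, 0.25 and 0.35. Slc3a2 and Slc7a5 were the other members with such neighbours, in clones 17 and 22. With these shifts as an offset in the edgeR fit the ATF4 arm again had 10 variable members, with Atf4 out (adjusted p = 0.0501) and Sesn2 in (0.0115), and Herpud1 passed (0.000139). The part of chromosome copy number in these differences was not tested.

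Related genes outside the 37 were looked at in the same way. Of 21 other ATF4 target genes 4 were variable (19%, against 7.68% of all genes): Cth, the enzyme that makes cysteine, at 209 CPM in clone 22 to 945 in clone 16 (adjusted p = 3.67e-07), and Slc1a4, Slc38a2 and Pycr1, amino acid transporters and a proline synthesis enzyme (adjusted p = 0.00789, 0.0176 and 0.0295). Slc38a2 was also highest in clone 16 (870 CPM), but Slc1a4 was highest in clone 19 (225 CPM) and Pycr1 in clone 21 (121 CPM). In clone 16 Pycr1 was at 59.2 CPM, below its mean of 64.9. The neighbours of Cth on chromosome 3 were higher by 0.47 in clone 16, and Cth passed with the offset (adjusted p = 0.000118). Slc38a2, on chromosome 15, had neighbours higher by 0.45, 0.53, 0.54 and 0.77 in clones 16 to 19 and passed with the offset too (adjusted p = 0.000900). With the offset 7 of the 21 passed, the others being Slc1a4, Pycr1, Cebpg, Gpt2 and Psph, while the count over all genes was 968. The list's median deviance ratio was 1.65, against 0.551 for all genes. Nars, which is also in the synthetase list, and Slc7a1 were at 797 ± 134 and 646 ± 94.8 CPM and did not pass. Of 19 cytosolic tRNA synthetases 0 were variable by the edgeR test (1 at an unadjusted p under 0.05, 0 with the DESeq2 trend), with a median deviance ratio of 0.714; Eprs was at 817 ± 115 CPM.

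Of 10 genes for eIF2 kinases, its phosphatase and eIF2B subunits 0 were variable by the edgeR test (1 with the DESeq2 trend, and 1 at an unadjusted p under 0.05). With the neighbour offset 1 passed, Eif2b5 (adjusted p = 0.00845). Ppp1r15b and Eif2b5 were at 454 ± 104 and 338 ± 89.0 CPM. Eif2ak2, the kinase that responds to double-stranded RNA, was lower in clone 25 than in the other 10 clones (log2 fold change -1.20, edgeR adjusted p = 0.0247), where its neighbours on chromosome 17 were lower as well, by -0.80. It was the 1 call among the 1023 pairs of clone and gene in these further lists (0.0978%). Of 30 other genes of ER folding and degradation 1 was variable (3.33%): Dnajc3, an inhibitor of PERK and BiP cochaperone, at 20.8 CPM in clone 17 to 73.2 in clone 26 (adjusted p = 1.77e-05). Its neighbours on chromosome 14 were lower in the clones where it was low, by -0.76, -0.53 and -0.74 in clones 16, 17 and 19, and with the offset Dnajc3 did not pass (adjusted p = 0.363). Canx and P4hb, a lectin chaperone and a disulfide isomerase, were at 894 ± 137 and 421 ± 64.3 CPM.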

How the data were processed

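Messenger RNA was measured in 11 clones. The authors deposited 1 table of raw counts, as whole numbers of reads for each gene. TopHat 1.4.0 and Bowtie 0.12.7 and the builds mm9 and hg19 are named, per the submitters' processing notes. Per the deposited file's name the genes are the protein-coding genes of Ensembl release 66, and it also gives hg19, while all IDs are of mouse genes. RNA came from the RNeasy kit and libraries from TruSeq RNA, per the labels' protocols. For the counting tool, strand and treatment of reads with several matches: not given in the sources used here. Symbols were found for 20777 of 22369 IDs.

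Analysis used edgeR 4.0.16 under R 4.3.3, with TMM factors of 0.971 to 1.04, and kept the 12479 genes whose mean reached 1 CPM. Variable genes were tested for goodness of fit (chi-square, 10 degrees of freedom) against a negative binomial model with only an intercept and trended dispersion. Each clone was set against the other 10 by the quasi-likelihood test, adjusted by Benjamini-Hochberg over 137269 pairs. Its standard errors follow from the log2 fold change and F, without any spread inside a clone. Genes varied by 24.8% in the common dispersion (as a coefficient of variation). Log2 values use a pseudocount of 1 CPM. Gene order and exon overlaps were read from the GENCODE vM21 annotation (GRCm38). That build is later than mm9, and only neighbours and shared exons were used. Shared exon bases are given as the longest overlap of a single pair of exons. Exon bases shared on the opposite strand were also found for Hsp90b1 (270 with 1810014B01Rik), Eif2ak3 (221 with Gm43292) and Manf (146 with Dcaf1), among others. The tests were first run on simulated data. DESeq2 1.42.0 served for alternatives, and other steps used Python 3.11.15, NumPy 2.4.6, pandas 2.3.3 and matplotlib 3.10.9.

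Members, lists and tests were chosen with earlier results of these data known. Described in full are the variable members and Atf4, Ddit3, Asns, Hspa5 and Xbp1, and the other members by range. Of each further list those that passed, up to 4, and the 2 with the highest CPM are named. Alternatives were other size factors, filters and dispersion trend, the neighbour offset, and each clone left out.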

Additional observations from a re-analysis of the deposited data

How the results depend on the processing

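With 1 library per clone no value has a replicate, and differences under the trended spread were not detectable. Of the results that answer a comparison, 92 values under the alternatives stayed within 1.5 times the reported count or SD and 5 moved further. The adjusted p of single members was followed for the variable members and for Ddit3, Asns, Hspa5 and Xbp1. Of these values, 262 stayed on their side of the threshold and 8 calls were lost. Of the lost calls, 6 were with clones 20 to 26 only and 2 were for Atf4. Sesn2 was not among the genes followed, and it passed with the neighbour offset and without clone 19 (edgeR adjusted p = 0.0115 and 0.0406). The variable genes numbered 817 to 1028 with other normalizations, filters and trends and with the neighbour offset, and 873 to 919 without single clones; the ATF4 arm had 9 (without clone 22) to 11 (without clone 19) and the ER arm 1. With clones 20 to 26 only, chosen after seeing the data, 610 genes were variable, with 5 in the ATF4 arm (Atf4, Trib3, Ddit4, Chac1 and Slc7a11) and 0 in the ER arm; 4 fewer clones were fitted. Atf3, Atf5, Vldlr, Stc2, Phgdh and Herpud1 then did not pass (adjusted p = 0.0669, 0.396, 0.176, 0.278, 1 and 0.0604). Calls of a clone against the rest on members were 2 by the DESeq2 Wald test in place of 0, and 0 to 1 leaving out single clones; the cause was not tested. The SD of the ATF4 arm score was 0.33 to 0.38 and of the ER arm score 0.081 to 0.121. No paired analysis was possible because all clones belong to 1 group.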

Other observations

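Cytosolic heat shock genes and targets of NRF2, the regulator of antioxidant genes, were also measured. Of 9 heat shock genes tested 1 was variable (11.1%, against 7.68% of all genes), Hsp90aa1, the inducible cytosolic HSP90, at 974 CPM in clone 22 to 2582 in clone 19 (edgeR adjusted p = 0.00527). Its second highest level was in clone 16, at 2174 CPM, while clone 18, high for the ATF4 arm, was at 1454. Hsp90ab1, its constitutive counterpart, was at 6915 ± 827 CPM (n = 11) and did not pass. With the neighbour offset 2 passed, Hsp90aa1 and Hspa8, a constitutive HSP70 (edgeR adjusted p = 0.00364 and 0.0330).

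Of 9 NRF2 targets 0 were variable by the edgeR test (2 at an unadjusted p under 0.05, 0 with the DESeq2 trend, and 1, Nqo1, with the neighbour offset). Their median deviance ratio was 1.35, against 0.551 for all genes. Txnrd1, thioredoxin reductase, was at 325 ± 33.4 CPM, and Gsr, glutathione reductase, at 94.7 ± 19.6 CPM (n = 11).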
